A study of Mus musculus with 6 samples.

Results

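The genes described here encode the fibroblast growth factors (FGFs), their receptors and binding proteins, the PDGF ligands, and the Sprouty, Spred and DUSP inhibitors of the signal. They were chosen by gene symbol from probe sets with exactly 1 symbol, which gave 43 of the 19938 genes measured. They comprise 22 FGF genes, 2 FGF binding proteins, 5 receptor genes, 4 PDGF ligands, 7 Sprouty and Spred genes and 3 ERK phosphatases. The study sorted mouse bone marrow cells that lacked CD45 (a leukocyte marker) and Ter119 (a red cell precursor marker) and that carried CD73, the ectoenzyme that turns AMP into adenosine. CD73+CD105+ cells (n = 3 arrays) also carried CD105 (endoglin), which assists the receptors of the TGF-beta family, and CD73+CD105- cells (n = 3 arrays) did not. All 6 samples were primary cells from dissociated marrow, sorted straight into lysis buffer with no other treatment or allele named, and strain, age and any pooling of animals are not given in the labels. The design asks how these stromal fractions, studied for engraftment alongside blood stem cells, differ in transcripts.

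FGFs bind receptor tyrosine kinases on the cell surface together with heparan sulfate, and the receptors pass the signal through Ras to the kinase ERK. ERK in turn induces its own inhibitors, among them Sprouty and Spred proteins, the phosphatase DUSP6 and the membrane protein encoded by Il17rd. FGF signalling is known for its part in cartilage growth and bone formation. PDGFs act through 2 further receptor kinases and are known as growth factors of mesenchymal cells and of the pericytes that surround vessels.

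The promoters of the 2 members that passed the test, Fgf7 and Dusp6, are shown with those of Spry1 and Il17rd, inhibitors of the same pathway described further on. RefSeq promoter windows (build GRCm38.p6) run from 250 bases before to 50 bases after an annotated start, and 32 of the 43 members had at least 1 in the table used here. Capitals mark the letters GGAAG, which hold the shorter core GGAA bound by ETS factors, and GGGCGG, the GC box, on either strand. GGAA followed by another letter was neither marked nor counted. All 4 windows lie on the plus strand, at chr2:126034408-126034707 (Fgf7), chr10:99262981-99263280 (Dusp6), chr3:37639697-37639996 (Spry1) and chr14:27038751-27039050 (Il17rd).
Fgf7: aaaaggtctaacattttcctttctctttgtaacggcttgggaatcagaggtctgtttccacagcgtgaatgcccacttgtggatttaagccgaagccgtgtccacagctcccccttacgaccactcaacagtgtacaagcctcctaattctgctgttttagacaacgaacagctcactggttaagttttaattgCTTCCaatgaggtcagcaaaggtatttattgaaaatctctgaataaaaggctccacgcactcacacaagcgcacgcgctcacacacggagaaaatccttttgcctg
Dusp6: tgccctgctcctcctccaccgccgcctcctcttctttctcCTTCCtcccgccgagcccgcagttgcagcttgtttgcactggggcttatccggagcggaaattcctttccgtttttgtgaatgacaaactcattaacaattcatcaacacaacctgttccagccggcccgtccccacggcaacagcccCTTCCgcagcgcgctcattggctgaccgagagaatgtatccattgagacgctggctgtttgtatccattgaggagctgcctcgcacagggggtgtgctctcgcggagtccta
Spry1: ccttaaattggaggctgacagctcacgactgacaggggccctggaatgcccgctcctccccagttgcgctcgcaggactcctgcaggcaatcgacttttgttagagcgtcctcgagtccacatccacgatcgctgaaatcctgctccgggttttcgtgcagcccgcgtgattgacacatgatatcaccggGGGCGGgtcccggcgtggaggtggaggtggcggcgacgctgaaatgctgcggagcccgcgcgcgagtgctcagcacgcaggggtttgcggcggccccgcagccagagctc
Il17rd: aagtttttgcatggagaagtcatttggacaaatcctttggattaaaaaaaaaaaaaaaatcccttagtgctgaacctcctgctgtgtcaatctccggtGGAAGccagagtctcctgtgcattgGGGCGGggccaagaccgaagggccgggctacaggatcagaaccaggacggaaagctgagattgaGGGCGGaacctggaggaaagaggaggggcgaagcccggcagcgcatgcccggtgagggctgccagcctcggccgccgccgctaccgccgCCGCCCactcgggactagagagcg
The letters GGAAG were found once in the Fgf7 window, 2 times in Dusp6, once in Il17rd and not in Spry1, while 71.4% of all 32851 windows held them. In Fgf7 that match overlapped the window's CCAAT letters. The GC box GGGCGG was found 3 times in Il17rd and once in Spry1, against 35.7% of all windows with at least 1. Each of the 4 windows held CCAAT once (37.4% of all windows), and none held the AP-1 letters TGANTCA (7.81%), the CRE letters TGACGTCA (1.79%) or TATAAA (13.6%). G and C made up 45.7% of the Fgf7 window, 57.3% of Dusp6, 64.3% of Spry1 and 58.3% of Il17rd, against a median of 52.7% over all windows. These letters describe the windows only.

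Values are the authors' RMA output, log2 expression per probe set, and a difference is the CD73+CD105+ mean minus the CD73+CD105- mean on that log2 scale. Array medians lay between 6.27 and 6.35. With 3 arrays a population, precision is limited, and differences had a median standard error of 0.09. As a rough gauge of dim signal, the 95th percentile of the mean values of 1190 olfactory and vomeronasal receptor genes was 6.01, and 15 of the 43 members had both population means below it. Eng, which encodes CD105, stood at 8.06 ± 0.25 in CD73+CD105+ cells and 6.30 ± 0.21 in CD73+CD105- cells (SD, n = 3 each), while the CD45 gene Ptprc was at 4.70 ± 0.06 in CD73+CD105+ cells and 4.71 ± 0.05 in CD73+CD105- cells, under that percentile. The labels name biological replicates without saying if each was a separate animal, and p-values reflect only the spread between these samples. Across genes, the 2 replicate 1 arrays averaged nearly the same as the remaining 4 arrays (SD of that difference 0.0423), which none of the 8 other cross-population pairs of arrays showed (lowest SD 0.122). No label describes that relation. Had the replicates been adjusted to each other before deposit, the standard errors and p-values given here would be too small, and the sources used here do not say whether that was done. Results are therefore also given with a term for replicate 1, a setting named with earlier results of these data known. In sorted bulk samples, fewer cells of a type and less RNA per cell cannot be told apart.

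Of the 43 members 2 rose in CD73+CD105+ cells, the ligand gene Fgf7 and the phosphatase gene Dusp6, 0 fell and 41 did not pass (limma, Benjamini-Hochberg adjusted p under 0.05 over 19938 genes). Over all genes tested, 1.82% passed, 1.35% higher and 0.466% lower in CD73+CD105+ cells, against 4.65% of the members. The median difference of the members was -0.02, and that of all genes was -0.02. In 11 of the 43 members (25.6%) the 3 arrays of one population lay above the 3 of the other, a share near the 23.7% of all genes. Fgf7, Fgf9, Fgf13, Spry1, Spry4 and Dusp6 were the 6 higher in CD73+CD105+ cells (10.7% of all genes), and Fgf6, Fgfr3, Fgfr4, Fgfrl1 and Spred1 the 5 lower in CD73+CD105+ cells (12.9% of all genes). An unadjusted p under 0.05 was found for 10 members (23.3%), against 17.7% of all genes. With the term for replicate 1, 1 member (Fgf7) and 0.507% of all genes passed.

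**Figure D1:**
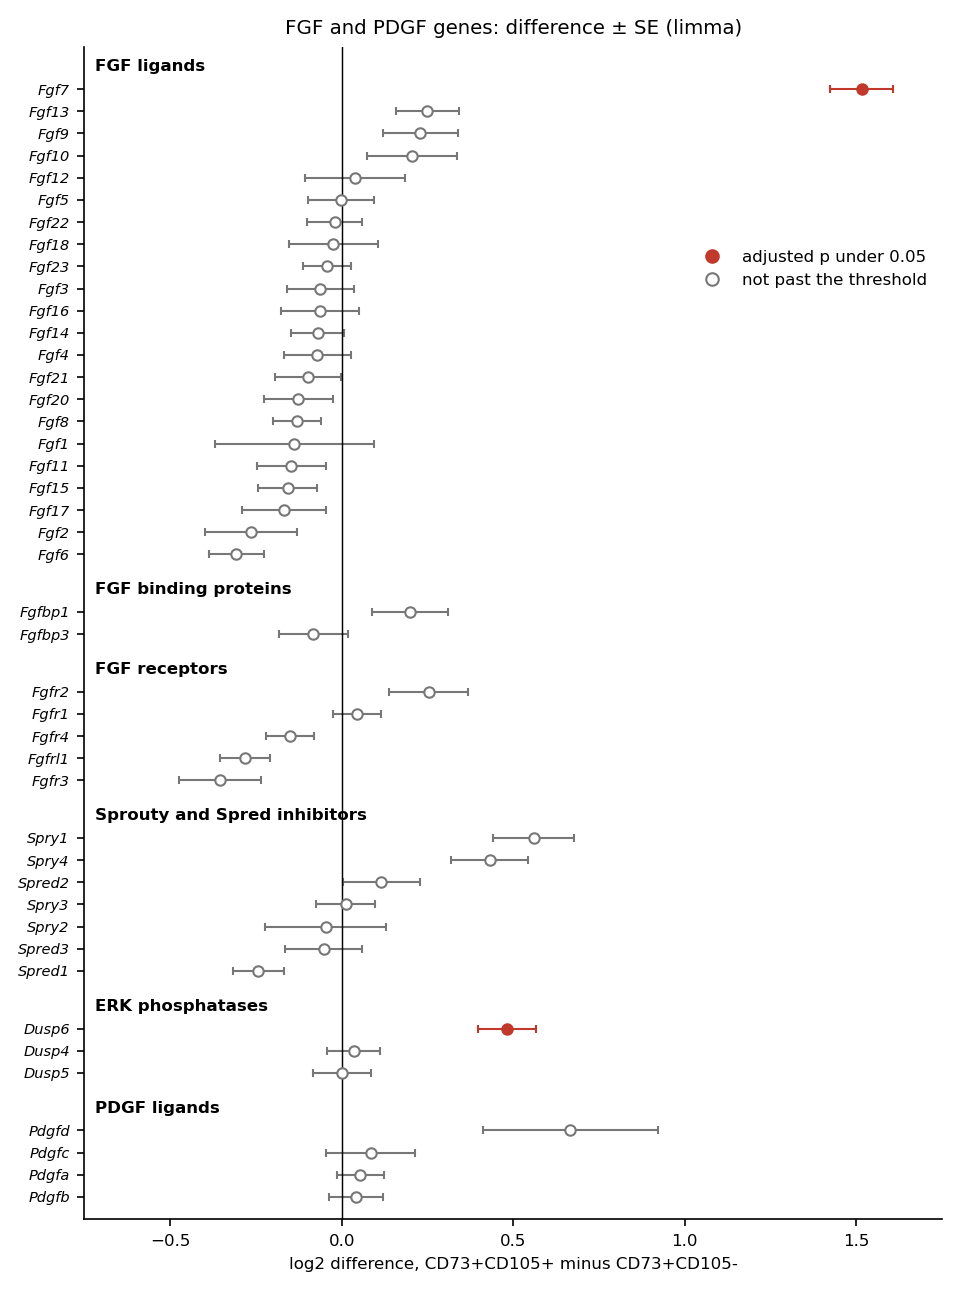
Difference in log2 expression, CD73+CD105+ minus CD73+CD105-, with its standard error, for each of the 43 genes by role (n = 3 arrays each). Filled points passed the limma threshold. Fgf7 stands at 1.52, apart from the other members, which lie between -0.35 (Fgfr3) and 0.67 (Pdgfd).

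Fgf7, keratinocyte growth factor, is a secreted ligand made by mesenchymal cells that acts on the epithelial splice form of the receptor Fgfr2. It stood at 9.38, 9.45 and 9.25 in CD73+CD105+ replicates 1, 2 and 3, against 7.93, 7.70 and 7.90 in CD73+CD105- replicates 1, 2 and 3. Every CD73+CD105+ array lay above every CD73+CD105- array, and both populations lay above the receptor gene percentile. Fgf7 averaged 9.36 ± 0.10 in CD73+CD105+ cells and 7.85 ± 0.13 in CD73+CD105- cells (SD, n = 3 each). It was 2.86-fold higher, a difference of 1.52 (SE 0.09, limma adjusted p = 0.000559), where 0.617% of all genes were at least 2-fold higher. The difference was 1.45 in replicate 1 and 1.55 over replicates 2 and 3. Fgf7 passed in all 16 alternative settings, with adjusted p between 0.000272 and 0.0400 and, with the term for replicate 1, 0.00291.

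The remaining 21 FGF genes held 0 past the threshold in limma. An unadjusted p under 0.05 was found for 2 of them, Fgf6 and Fgf13, against 17.7% of all genes. Differences of the 21 lay between -0.31 and 0.25 with a median of -0.07. Of these, 17 were below 0, where 44.4% of all genes were above 0. Over replicates 2 and 3 alone, 9 of the 21 were below 0, where 50% of all genes were above 0. The count was 14 without the CD73+CD105+ replicate 1 array alone and 13 without the CD73+CD105- replicate 1 array alone. Of these 21 genes 11 had both means under the receptor gene percentile, namely Fgf3, Fgf4, Fgf6, Fgf10, Fgf11, Fgf12, Fgf13, Fgf14, Fgf16, Fgf20 and Fgf21. Fgf6, known as a ligand of muscle, stood at 4.99, 5.05 and 4.98 in CD73+CD105+ arrays, against 5.33, 5.19 and 5.42 in CD73+CD105- arrays. Its populations did not overlap and its difference of -0.31 (SE 0.08) did not pass (limma adjusted p = 0.112). Fgf10, which shares the receptor form of Fgf7, stood at 5.53, 5.32 and 5.84 in CD73+CD105+ arrays, against 5.39, 5.40 and 5.29 in CD73+CD105- arrays. These populations overlapped around a difference of 0.20 (limma adjusted p = 0.464). Fgf11, Fgf12, Fgf13 and Fgf14 encode FGF homologues that stay inside the cell, and their differences lay between -0.15 and 0.25. Among them Fgf13 had the lowest limma adjusted p, 0.226.

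Of the ligands now given singly, Fgf18 had a high mean level, and Fgf9, Fgf2, Fgf1 and Fgf23 were chosen after their values were seen. Fgf18, a ligand that acts on growth plate chondrocytes and bone-forming cells, stood at 9.38, 9.40 and 9.60 in CD73+CD105+ arrays, against 9.60, 9.21 and 9.64 in CD73+CD105- arrays. The populations overlapped, with a difference of -0.02 (95% interval -0.33 to 0.28, limma adjusted p = 0.949). Fgf9, a related ligand of skeletal growth, stood at 7.70, 7.39 and 7.42 in CD73+CD105+ arrays, against 7.13, 7.35 and 7.34 in CD73+CD105- arrays. The gap between its populations was narrow, and the difference was 0.57 in replicate 1 and 0.06 over replicates 2 and 3 (limma adjusted p = 0.330 in all arrays). Fgf2, basic FGF, stood at 7.43, 7.74 and 7.21 in CD73+CD105+ arrays, against 7.79, 7.76 and 7.62 in CD73+CD105- arrays. Its difference of -0.26 did not pass (SE 0.13, limma adjusted p = 0.362). Fgf1, acidic FGF, had the widest spread of the FGF genes, with an SD of 0.37 in each population around a difference of -0.14, which was 0.12 over replicates 2 and 3. Fgf23, the phosphate hormone of osteocytes, differed by -0.04, with a 95% interval of -0.21 to 0.12. The other FGF genes above the percentile were Fgf5, Fgf8, Fgf15, Fgf17 and Fgf22, with differences between -0.17 (Fgf17) and -0.00173 (Fgf5).

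The FGF binding proteins carry FGFs out of the matrix. Fgfbp1 stood at 5.46, 5.79 and 5.63 in CD73+CD105+ arrays, against 5.53, 5.48 and 5.27 in CD73+CD105- arrays, below the receptor gene percentile in both. Fgfbp3 stood at 5.95, 6.19 and 5.91 in CD73+CD105+ arrays, against 6.17, 6.16 and 5.97 in CD73+CD105- arrays. Both genes overlapped between populations, with differences of 0.20 and -0.08 (limma adjusted p = 0.401 and 0.725).

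None of the 5 receptor genes passed in limma, and their differences ran in both directions. An unadjusted p under 0.05 was found for 2 of the 5, Fgfr3 and Fgfrl1, against 17.7% of all genes. Fgfr1, the receptor form broadly found in mesenchyme, stood at 9.79, 9.71 and 9.65 in CD73+CD105+ arrays, against 9.63, 9.68 and 9.71 in CD73+CD105- arrays. The populations overlapped and the difference was 0.04, with a 95% interval of -0.12 to 0.21. Fgfr2, a receptor of bone-forming cells and epithelia, stood at 9.47, 9.26 and 9.42 in CD73+CD105+ arrays, against 9.01, 9.02 and 9.36 in CD73+CD105- arrays. One CD73+CD105- array, replicate 3, lay within the CD73+CD105+ range (difference 0.25, SE 0.12, limma adjusted p = 0.312). The array does not separate the splice forms of Fgfr2 here, since 1 probe set stands for the gene.

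Fgfr3, the receptor that restrains growth plate chondrocytes, stood at 8.67, 8.79 and 8.45 in CD73+CD105+ arrays, against 8.98, 9.17 and 8.82 in CD73+CD105- arrays. The populations did not overlap, and the difference of -0.35 (SE 0.12) did not pass (limma adjusted p = 0.193), at -0.31 in replicate 1 and -0.37 over replicates 2 and 3. Fgfrl1, a receptor without a kinase domain, stood at 7.95, 8.09 and 8.04 in CD73+CD105+ arrays, against 8.36, 8.33 and 8.24 in CD73+CD105- arrays. It was also separated, with a difference of -0.28 (SE 0.07, limma adjusted p = 0.107). Fgfr4 stood at 6.13, 6.26 and 6.10 in CD73+CD105+ arrays, against 6.32, 6.31 and 6.32 in CD73+CD105- arrays, close to the receptor gene percentile. Its difference was -0.15 (SE 0.07, limma adjusted p = 0.321). Beside these values, all 10 chondrocyte markers had differences below 0 and 1 of them, Sox6, passed. The mean chondrocyte marker level per array was 10.4 to 10.8 in CD73+CD105+ cells and 10.9 to 11.1 in CD73+CD105- cells, with 0 markers below the receptor gene percentile, and its part in the receptor values was not tested.

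**Figure D2:**
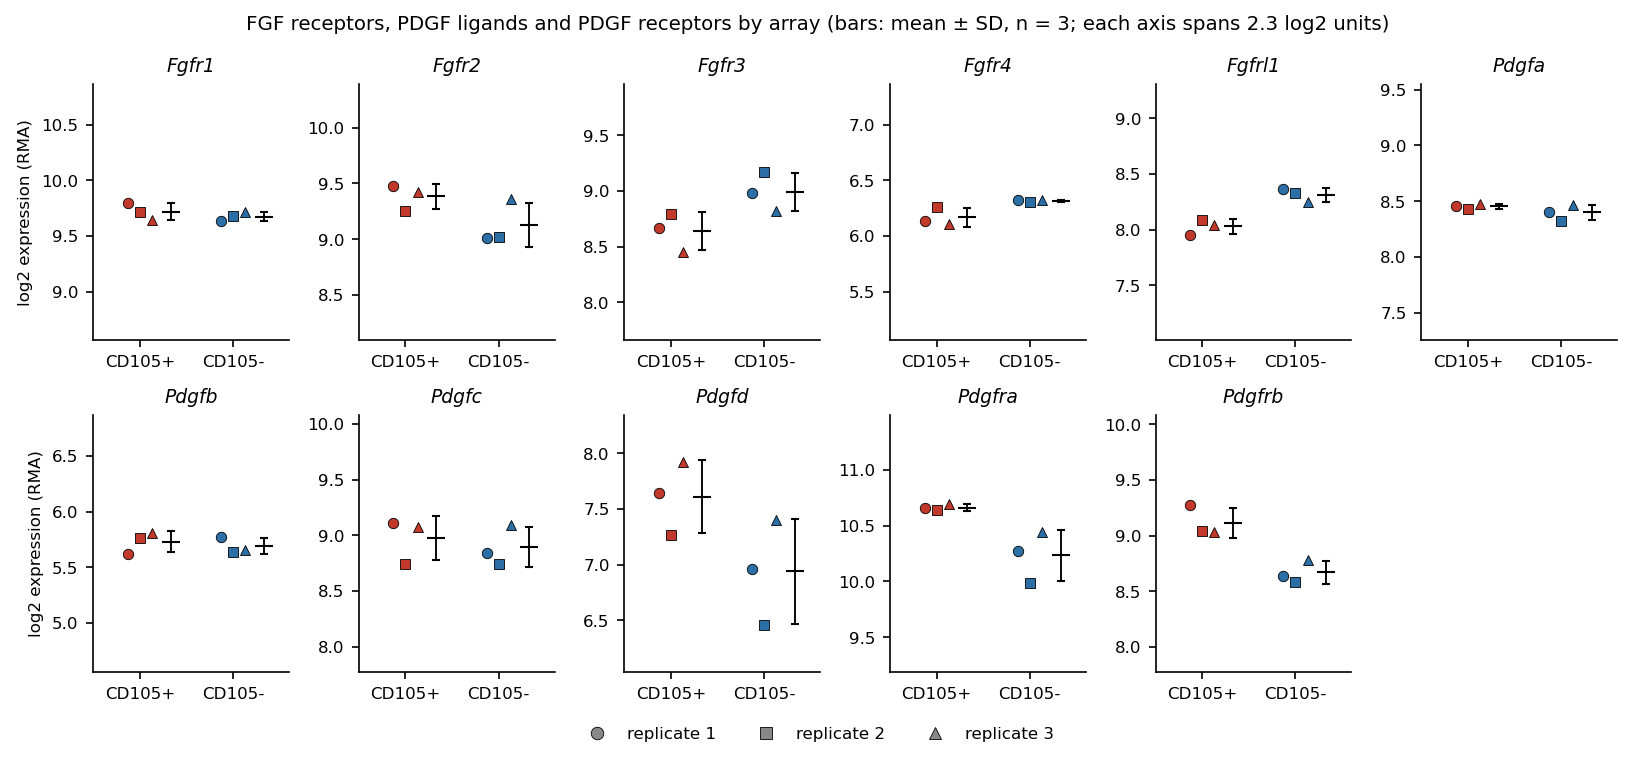
Log2 expression (vertical axes, each spanning the same number of log2 units) by array for the FGF receptors, PDGF ligands and PDGF receptors, CD73+CD105+ left and CD73+CD105- right, with mean ± SD (n = 3). Fgfr3, Fgfr4 and Fgfrl1 are lower and Pdgfra and Pdgfrb higher in every CD73+CD105+ array, while Fgfr1 and Pdgfa overlap. None of the genes plotted passed the threshold.

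Of the 10 inhibitor genes (7 Sprouty and Spred genes and 3 ERK phosphatases), 1 rose, Dusp6, 0 fell, and 9 did not pass. Over all genes, 1.82% passed. DUSP6 is a phosphatase of the cytoplasm that removes the activating phosphates of ERK and is itself induced by FGF signals. Dusp6 stood at 8.01, 7.85 and 7.91 in CD73+CD105+ arrays, against 7.32, 7.53 and 7.46 in CD73+CD105- arrays. The populations did not overlap. Dusp6 averaged 7.92 ± 0.08 in CD73+CD105+ cells and 7.44 ± 0.11 in CD73+CD105- cells (SD, n = 3 each), 1.40-fold higher (difference 0.48, SE 0.08, limma adjusted p = 0.0403). That call lay near the threshold and was lost when any 1 of the 6 arrays was left out (adjusted p 0.0662 to 0.171) and with the term for replicate 1 (0.128). The difference was 0.69 in replicate 1 and 0.38 over replicates 2 and 3.

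The related phosphatase genes overlapped between populations. Dusp4, which encodes a nuclear ERK phosphatase, stood at 5.60, 5.60 and 5.53 in CD73+CD105+ arrays, against 5.53, 5.66 and 5.44 in CD73+CD105- arrays, below the receptor gene percentile. Dusp5, another nuclear ERK phosphatase gene, stood at 7.35, 7.43 and 7.18 in CD73+CD105+ arrays, against 7.28, 7.32 and 7.36 in CD73+CD105- arrays. Their differences were 0.03 and 0.000875, with 95% intervals of -0.15 to 0.22 and -0.20 to 0.20.

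Sprouty proteins block the signal between the receptor and ERK. Spry1 stood at 6.99, 7.27 and 6.89 in CD73+CD105+ arrays, against 6.59, 6.34 and 6.54 in CD73+CD105- arrays. The arrays were separated, and the difference of 0.56 (SE 0.12), a ratio of 1.47, did not pass (limma adjusted p = 0.0701). Spry4 stood at 7.09, 6.91 and 7.21 in CD73+CD105+ arrays, against 6.65, 6.47 and 6.79 in CD73+CD105- arrays. It was separated as well, with a difference of 0.43 (SE 0.11, limma adjusted p = 0.111) that was 0.44 in replicate 1 and 0.43 over replicates 2 and 3. Spry2 ran from 7.75 to 8.43 in CD73+CD105+ arrays and from 8.01 to 8.32 in CD73+CD105- arrays, overlapping around a difference of -0.05. Spry3 was dim, with both means under the receptor gene percentile and a difference of 0.01.

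Spred proteins suppress the activation of Raf by Ras. Spred1 stood at 9.61, 9.66 and 9.60 in CD73+CD105+ arrays, against 9.82, 9.98 and 9.80 in CD73+CD105- arrays. The populations were separated in the direction opposite to Spry1 and Spry4, and the difference of -0.24 (SE 0.08) did not pass (limma adjusted p = 0.163). Spred2 stood at 10.26, 9.996 and 10.26 in CD73+CD105+ arrays, against 9.90, 10.06 and 10.22 in CD73+CD105- arrays. It overlapped, with a difference of 0.12 in the probe set used and -0.00136 in the other of its 2 probe sets. Spred3 differed by -0.05.

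**Figure D3:**
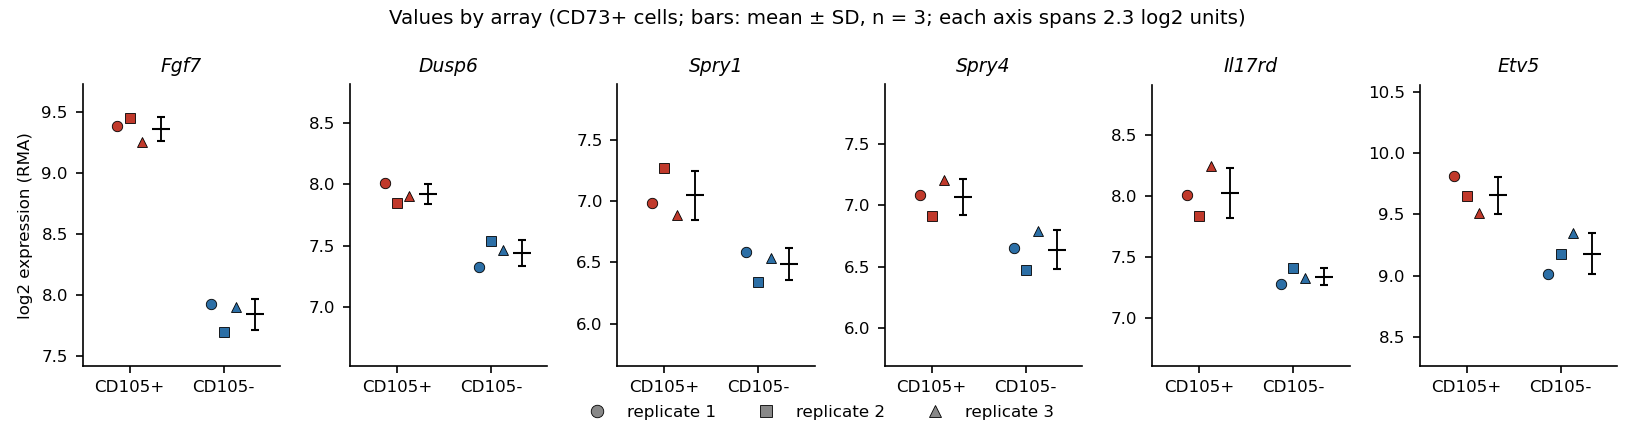
Log2 expression (vertical axes, each spanning the same number of log2 units) by array for Fgf7 and for 5 genes of FGF feedback and response, CD73+CD105+ left and CD73+CD105- right, with mean ± SD (n = 3). In all 6 genes each CD73+CD105+ array lies above each CD73+CD105- array, as in 10.7% of all genes, and Fgf7, Dusp6 and Il17rd passed the threshold. The 5 genes are those of feedback and response described that were separated in this direction, so the choice of genes fixed that pattern. Second probe sets of Il17rd and Etv5, not plotted, overlap between populations. The other Sprouty, Spred, DUSP and Etv genes described, which are not plotted, overlap between populations or, for Spred1, lie lower in CD73+CD105+ arrays.

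None of the 4 PDGF ligand genes passed (0 in limma, 1 with an unadjusted p under 0.05, Pdgfd, against 17.7% of all genes). Pdgfa stood at 8.45, 8.43 and 8.48 in CD73+CD105+ arrays, against 8.41, 8.33 and 8.47 in CD73+CD105- arrays, a difference of 0.05 with a 95% interval of -0.11 to 0.21. Pdgfb, which endothelial cells use to recruit pericytes, stood at 5.62, 5.76 and 5.81 in CD73+CD105+ arrays, against 5.77, 5.64 and 5.66 in CD73+CD105- arrays. Both means were under the receptor gene percentile, with a difference of 0.04 (95% interval -0.15 to 0.23). Pdgfc stood at 9.11, 8.75 and 9.08 in CD73+CD105+ arrays, against 8.84, 8.75 and 9.09 in CD73+CD105- arrays, and overlapped. Pdgfd, a ligand of the beta receptor, stood at 7.64, 7.27 and 7.92 in CD73+CD105+ arrays, against 6.96, 6.46 and 7.40 in CD73+CD105- arrays. The populations overlapped because the CD73+CD105- replicate 3 array lay above the CD73+CD105+ replicate 2 array. Its difference of 0.67 (SE 0.25) did not pass (limma adjusted p = 0.238), at 0.68 in replicate 1 and 0.66 over replicates 2 and 3. Its SDs of 0.33 in CD73+CD105+ cells and 0.47 in CD73+CD105- cells were the widest among the PDGF ligands.

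Other genes of the FGF and PDGF pathways were read from a list of 48, of which 41 were measured. Of these 1 rose, Il17rd, 0 fell and 40 did not pass (2.44% past the threshold, against 1.82% of all genes), with a median difference of 0.09 against -0.02 over all genes. Il17rd encodes SEF, a membrane protein that inhibits FGF signalling, and stood at 8.01, 7.83 and 8.24 in CD73+CD105+ arrays, against 7.28, 7.41 and 7.33 in CD73+CD105- arrays. The populations did not overlap, and Il17rd was 1.61-fold higher (difference 0.69, SE 0.11, limma adjusted p = 0.0323). The call was lost in 9 of 16 alternative settings, among them the term for replicate 1 (0.0900) and the omission of any 1 array other than CD73+CD105+ replicate 2 (0.0602 to 0.122). A second Il17rd probe set overlapped between populations, with a difference of 0.28, and with both averaged the difference was 0.48 (adjusted p = 0.0545).

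Etv5 encodes an ETS transcription factor induced by FGF signals, and stood at 9.81, 9.65 and 9.51 in CD73+CD105+ arrays, against 9.01, 9.18 and 9.35 in CD73+CD105- arrays. The arrays were separated and the difference of 0.48 (SE 0.11) did not pass (limma adjusted p = 0.0928). It was 0.80 in replicate 1 and 0.32 over replicates 2 and 3, and a second Etv5 probe set differed by 0.06. The related Etv1 and Etv4 differed by 0.30 and 0.07 and did not pass.

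Heparan sulfate genes, 12 in all, held 0 past the threshold in limma and 2 with an unadjusted p under 0.05, Sulf1 and Gpc1. Sulf1, a secreted sulfatase that trims heparan sulfate, stood at 10.06, 9.86 and 10.06 in CD73+CD105+ arrays, against 9.33, 9.12 and 9.72 in CD73+CD105- arrays. It was separated, with a difference of 0.60 (SE 0.15, limma adjusted p = 0.107). Sulf1 passed in 2 of 16 alternative settings, among them without CD73+CD105- replicate 3 (limma adjusted p = 0.0380), and not with the term for replicate 1 (0.230). The 6 genes of heparan sulfate proteoglycan cores ran in both directions, with differences of -0.23 for Gpc1, -0.24 for Sdc3, -0.23 for Hspg2, -0.03 for Sdc4, 0.09 for Sdc1 and 0.17 for Sdc2. Differences of the 15 adaptor and Ras to ERK genes lay between -0.13 (Ptpn11) and 0.32 (Rasa1), and 0 passed in limma (1 with an unadjusted p under 0.05). Of 5 surface partners of the FGF receptors, the klotho genes Kl and Klb lay below the receptor gene percentile, and Flrt2 differed by 0.47 (limma adjusted p = 0.281).

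The receptors and partners of PDGF held 0 of 5 past the threshold in limma and 3 with an unadjusted p under 0.05. Nrp1, a co-receptor for VEGF and semaphorins that also binds PDGFs, stood at 9.20, 8.99 and 8.99 in CD73+CD105+ arrays, against 8.47, 8.70 and 8.57 in CD73+CD105- arrays, with a difference of 0.48 (SE 0.09, limma adjusted p = 0.0568). Plat, the protease that activates PDGF-C, stood at 9.32, 9.36 and 8.26 in CD73+CD105+ arrays, against 8.17, 8.59 and 8.45 in CD73+CD105- arrays. The CD73+CD105+ replicate 3 array lay apart from its group, and the Plat difference was 0.57 with it (limma adjusted p = 0.359) and 0.93 without it (0.0467). The receptor genes Pdgfra and Pdgfrb are named after their values were seen. Pdgfra stood at 10.66, 10.64 and 10.69 in CD73+CD105+ arrays, against 10.27, 9.99 and 10.44 in CD73+CD105- arrays (difference 0.43, limma adjusted p = 0.124). Pdgfrb, the receptor of pericytes, stood at 9.27, 9.04 and 9.03 in CD73+CD105+ arrays, against 8.64, 8.59 and 8.78 in CD73+CD105- arrays (difference 0.45, limma adjusted p = 0.0687). Both were separated and neither passed.

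**Figure D4:**
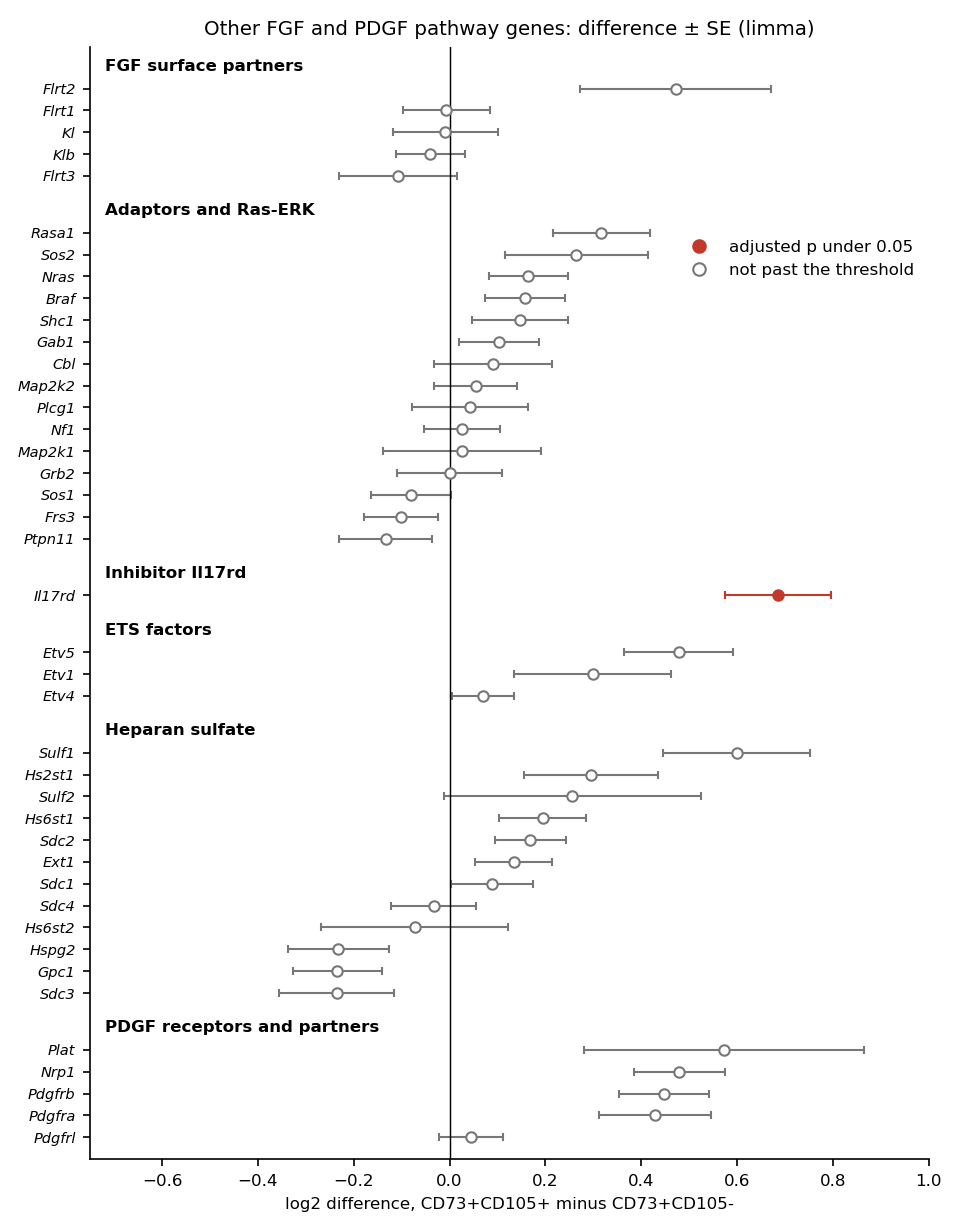
Difference in log2 expression, CD73+CD105+ minus CD73+CD105-, with its standard error, for 41 other genes of the FGF and PDGF pathways by role (n = 3 arrays each). The filled point, Il17rd at 0.69, passed the limma threshold, and the adaptor genes lie between -0.13 and 0.32.

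Markers of other cell types differed between the same samples. Of 12 endothelial markers 10 rose and 0 fell, and the mean marker level per array was 8.04 to 8.32 in CD73+CD105+ cells and 6.01 to 6.25 in CD73+CD105- cells, where 6 of the 12 lay below the receptor gene percentile. The list holds Eng, whose protein was used for the sort, and without it 9 of 11 rose, with mean levels of 8.06 to 8.32 in CD73+CD105+ cells, against 5.99 to 6.26 in CD73+CD105- cells. Of 7 markers of Lepr-expressing reticular stroma 6 rose (8.94 to 9.16 in CD73+CD105+, 7.91 to 8.28 in CD73+CD105- cells), and of 8 pericyte and smooth muscle markers 4 rose (7.83 to 8.07 in CD73+CD105+, 7.26 to 7.43 in CD73+CD105- cells). The pericyte marker Cspg4 had lower values in every CD73+CD105+ array, with a difference of -0.47 that did not pass (limma adjusted p = 0.0634). Of 7 fibroblast and tendon markers 1 rose (10.01 to 10.30 in CD73+CD105+, 9.20 to 9.74 in CD73+CD105- cells). In limma 6 of the 7 had an unadjusted p under 0.05. Every marker of this list, which holds Pdgfra, had a difference above 0. In none of these last 3 lists did a marker lie below the receptor gene percentile. Fgf7, Dusp6, Il17rd, Spry1 and Spry4 were higher in the same samples as these lists, whose part in their differences was not tested. Osteoblast lineage markers held 0 of 6 past the threshold in limma (2 with an unadjusted p under 0.05). The leukocyte (6 genes), erythroid (3), platelet (4), mast cell (4) and nerve (2) markers also held 0 past the threshold, and in limma an unadjusted p under 0.05 was found for 2, 0, 1, 1 and 1 of them.

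Dissociation of tissue is known to induce immediate early genes, and ERK phosphatases can respond to the same stimuli. Of 14 immediate early genes 0 passed in limma (2 with an unadjusted p under 0.05), and all 14 had differences below 0, with a median of -0.21. Their mean level per array was 10.6 to 10.9 in CD73+CD105+ cells and 10.9 to 11.2 in CD73+CD105- cells. Of the 10 inhibitor genes 7 had differences above 0 and 3 below (Spred1, Spred3 and Spry2), where 44.4% of all genes were above 0. Over replicates 2 and 3 alone, Dusp5, Spred2 and Spry3 turned below 0 and Spred3 above 0. The part of dissociation in the inhibitor genes was not tested.

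**Figure D5:**
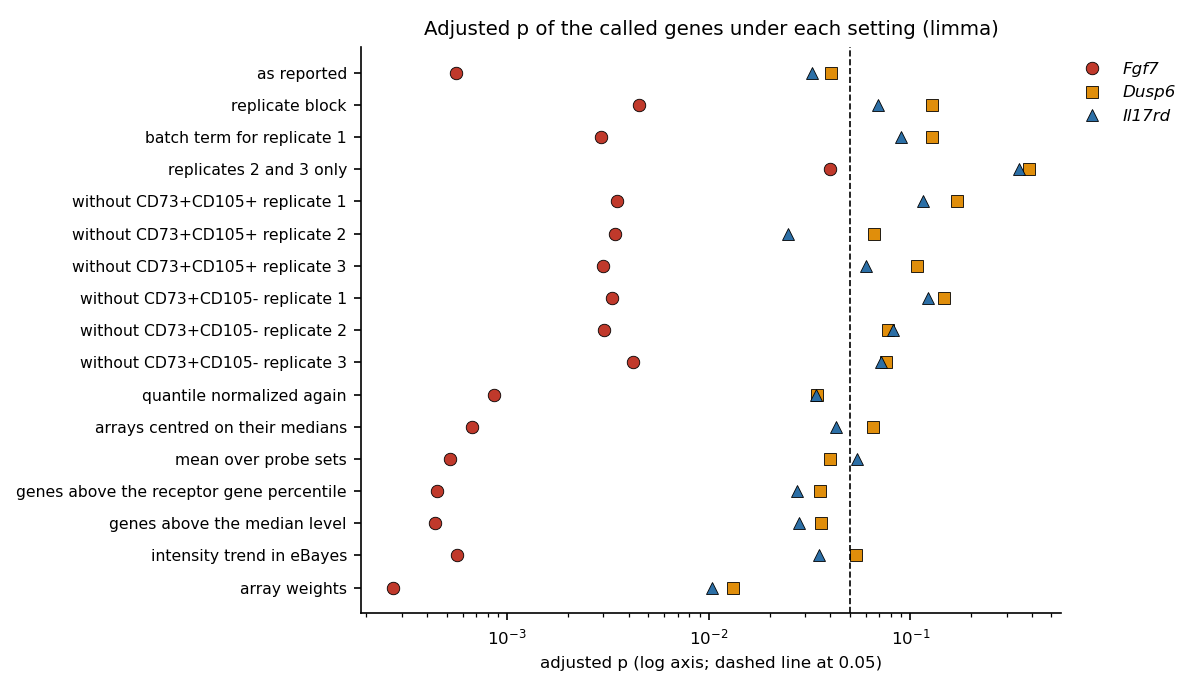
Adjusted p (horizontal log axis, dashed line at 0.05) of Fgf7, Dusp6 and Il17rd in limma as reported and under each of 16 alternative settings. Fgf7 lies left of the line in each of them, while Dusp6 does in 5 and Il17rd in 7.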

How the data were processed

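Biotin-labelled RNA of 6 sorted samples was read on 1-colour arrays, 1 per sample, per the labels. The deposited log2 values per probe set were made by the authors with RMA (background correction, quantile normalization and probe summary), per the submitters' processing notes. Software version, probe annotation and build: not given in the sources used here. Without scanner files, detection calls and other background corrections were not used here.

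The platform annotation gave 1 symbol to 21789 of the 35556 probe sets (1621 had several and 12146 none here), and 21698 matched a RefSeq gene by Entrez ID. Per gene the probe set with the highest mean over the 6 arrays was used, giving 19938 genes. Groups were tested with two-sided moderated tests (lmFit, eBayes) of limma 3.58.1 under R 4.3.3, with no block and no filter on dim genes. P-values were Benjamini-Hochberg adjusted over all genes with a threshold of 0.05.

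The members, role groups, lists and alternatives were chosen with earlier results of these data known. Per-array values are given for members past the threshold, receptors, PDGF ligands, and in each role group the 2 members with the largest difference and the 2 with the highest mean. From the pathway list, the genes past the threshold and the 4 next largest differences are given. Fgf1, Fgf2, Fgf9 and Fgf10 and other genes outside this rule were named after their values were seen. On simulated arrays from these 19938 genes, limma recovered 85% of 100 genes shifted by 1 log2 unit and 100% of 100 shifted by 2, and 8 of its 193 calls were false. The simulated arrays were drawn independently, so the relation of the replicate 1 arrays was not covered. Shifts smaller than 1 log2 unit were not simulated.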

Additional observations from a re-analysis of the deposited data

How the results depend on the processing

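Under 16 alternatives Fgf7 kept its direction and its call, with differences between 1.44 and 1.57. The 2 members past the threshold became 1 with the term for replicate 1, in replicates 2 and 3 alone, with arrays centred on their medians and with an intensity trend, 1 each time an array was left out (1 to 1), and 6 with array weights (Dusp6, Fgf6, Fgf7, Fgfrl1, Spry1 and Spry4). The 1 pathway gene past the threshold became 0 with the term for replicate 1, in replicates 2 and 3 alone and with probe sets averaged, 2 with arrays quantile normalized again and above the median level, 7 with array weights, and 0 to 1 without 1 array. Over all genes the 363 calls became 101 with the term for replicate 1, 29 in replicates 2 and 3 alone, 1331 with array weights and 86 to 293 without 1 array. The median difference of the members was -0.0237, 0.00870 in replicates 2 and 3 alone, and from -0.0618 to 0.00262 without 1 array.

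Whether the replicate numbers pair the samples could not be told from the values. The deviations from the group means correlated at -0.88, 0.00659 and 0.10 for numbers 1, 2 and 3, across genes. The value of -0.88 follows from the near-equal averages of the replicate 1 arrays and the remaining arrays, so these correlations cannot decide on pairing. With the replicate number as a block, 215 genes passed over all genes, 2 members did (Fgf7 and Pdgfd; adjusted p = 0.0472 for Pdgfd and 0.128 for Dusp6) and 0 pathway genes. Differences that had not passed changed sign in replicates 2 and 3 alone for 14 of the 43 members. These were Fgf1 (0.124), Fgf3 (0.0586), Fgf5 (0.124), Fgf16 (0.0142), Fgf20 (0.000296), Fgf21 (0.00870), Fgf22 (0.0235), Spred3 (0.121), Spry3 (-0.0619), Dusp5 (-0.0361), Fgf18 (0.0739), Fgfr1 (-0.0136), Pdgfc (-0.00711) and Spred2 (-0.00739). With array weights 3 members changed sign, Pdgfb (-0.0289), Fgf12 and Spry2. Fgf5 did so with arrays quantile normalized again and with arrays centred on their medians. Without 1 array Dusp5 ranged from -0.0542 to 0.0711, Dusp4 from -0.0152 to 0.0902 and Fgf18 from -0.159 to 0.0541. The causes were not tested. Signal near background limits the dim members, whose differences RMA can compress, which was not tested here.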
